A study of Mus musculus with 48 samples.

Results

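The liver converts and inactivates steroid hormones, and 10 enzymes of this chemistry were followed here by their mRNA across 8 groups of mice. They are the 3β-hydroxysteroid dehydrogenases Hsd3b5, Hsd3b2 and Hsd3b3, the 11β-hydroxysteroid dehydrogenase Hsd11b1, the 17β-hydroxysteroid dehydrogenases Hsd17b2, Hsd17b11 and Hsd17b13, the 5α-reductase Srd5a1, the 5β-reductase Akr1d1 and the aldo-keto reductase Akr1c6. They were picked by symbol, and all 10 were found among the 55414 genes of the count table and passed the filter on low counts, which 15414 genes passed. Liver RNA came from 48 FCG mice on a C57BL/6 background, with 1 library per mouse and 6 mice per group. In FCG mice the testis-determining gene Sry is missing from the Y chromosome (written Y-) and is carried by some mice as a transgene, SryTg, so that sex chromosomes and gonads vary separately. The genotypes were XX (ovaries, XX Ov), XY- (ovaries, XY Ov), XX;SryTg (testes, XX Te) and XY-;SryTg (testes, XY Te). Each was studied with its gonads in place (Intact) or after gonadectomy (GDX) at 75 days of age. All groups were fed a high-fat diet (HFD) with 60% of calories from fat from 15 to 17 weeks of age, for 11 weeks in the Intact and 15 weeks in the GDX mice, and no group on another diet was analysed here. Gonadal status, weeks of HFD and, by these labels, age at the end of the diet therefore changed together between GDX and Intact mice and cannot be told apart. The methods of the study also name the Intact and the GDX mice as separate cohorts. The durations are those of the labels, and the methods of the study state different ones. Mice are named by the numbers in their labels.

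Steroid hormones are made in the gonads and adrenal glands, and the liver clears them from blood. Hydroxysteroid dehydrogenases interconvert hydroxyl and keto groups at fixed positions of the steroid ring, which switches hormones between active and weak forms. The 5α- and 5β-reductases saturate the double bond of the A ring, and the aldo-keto reductases of the Akr1c family then reduce keto groups of the products. Several of these genes are known to be expressed at different levels in livers of male and female mice, and the 3β-hydroxysteroid dehydrogenase genes and the Akr1c genes each lie in a cluster of close copies.

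The 300 bases around the start sites of the clustered Hsd3b genes and of Srd5a1 are shown because the 3 Hsd3b copies lie side by side and yet differed in level and in pattern, and because Srd5a1 was the member whose levels separated mice with ovaries from mice with testes. Each window runs from 250 bases before to 50 bases after the start, on the strand of the gene, from RefSeq (GRCm38.p6), and capitals mark the matches to 5 motifs searched on both strands. The windows are chr3:98645485-98645784 for Hsd3b5, chr3:98724494-98724793 for Hsd3b2, chr3:98763079-98763378 for Hsd3b3 and chr13:69611414-69611713 for Srd5a1, all on the minus strand.
Hsd3b5: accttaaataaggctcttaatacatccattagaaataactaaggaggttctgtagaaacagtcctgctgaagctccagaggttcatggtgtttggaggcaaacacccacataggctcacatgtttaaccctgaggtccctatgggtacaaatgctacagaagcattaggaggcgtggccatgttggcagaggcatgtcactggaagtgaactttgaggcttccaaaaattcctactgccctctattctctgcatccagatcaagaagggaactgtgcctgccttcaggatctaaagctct
Hsd3b2: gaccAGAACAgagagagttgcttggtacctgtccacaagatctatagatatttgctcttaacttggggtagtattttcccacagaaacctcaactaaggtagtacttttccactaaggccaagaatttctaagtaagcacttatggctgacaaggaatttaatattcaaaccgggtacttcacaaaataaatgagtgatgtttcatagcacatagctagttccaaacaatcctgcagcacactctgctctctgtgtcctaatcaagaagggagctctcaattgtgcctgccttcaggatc
Hsd3b3: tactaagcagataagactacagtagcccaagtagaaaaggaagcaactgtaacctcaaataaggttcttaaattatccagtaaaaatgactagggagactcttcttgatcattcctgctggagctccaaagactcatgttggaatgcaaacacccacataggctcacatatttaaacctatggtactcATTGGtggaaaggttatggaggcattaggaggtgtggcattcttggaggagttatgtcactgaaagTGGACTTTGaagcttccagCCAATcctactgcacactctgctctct
Srd5a1: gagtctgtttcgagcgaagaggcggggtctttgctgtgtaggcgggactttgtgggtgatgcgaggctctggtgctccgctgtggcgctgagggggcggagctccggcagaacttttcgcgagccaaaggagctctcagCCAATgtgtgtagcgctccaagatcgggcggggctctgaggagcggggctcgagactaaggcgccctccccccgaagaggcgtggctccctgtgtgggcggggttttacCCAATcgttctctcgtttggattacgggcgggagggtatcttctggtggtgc
The TATA box TATAAA was found in 13.6% of 32851 RefSeq promoter windows of this length. The box CCAAT occurred in 37.4% of them. The motif TTCNNNGAA, of the type bound by STAT5, occurred in 8.3% of the windows. The unit AGAACA of steroid hormone response elements occurred in 19.0% of the windows. The motif CAAAGTCCA, of the type bound by HNF4, occurred in 0.475% of the windows. No 2 of these motifs contain each other. None of the 5 occurred in the Hsd3b5 window. The Hsd3b2 window held AGAACA, the Hsd3b3 window held CCAAT on each strand and, on the opposite strand, CAAAGTCCA, and the Srd5a1 window held CCAAT at 2 positions. In an alignment, the Hsd3b5 window was identical to the Hsd3b3 window at 76.3% and to the Hsd3b2 window at 69.0% of aligned bases, and Hsd3b2 and Hsd3b3 at 63.6%. The other members' windows, where RefSeq gives one, held CCAAT in Hsd11b1, Hsd17b11 and Akr1c6 and TATAAA in Akr1c6, and no match in Hsd17b13 and Akr1d1. A match describes letters and not a bound site.

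In the NCBIM37 annotation, which is not the build of the counts, Hsd3b5 (ENSMUSG00000038092), Hsd3b2 (ENSMUSG00000063730) and Hsd3b3 (ENSMUSG00000062410) lie in this order on the minus strand of chromosome 3, at chr3:98422559-98434232, chr3:98513178-98528499 and chr3:98545399-98567051. Their coding sequences, 1122 bases each, were identical at 95.1% of aligned bases between Hsd3b2 and Hsd3b3 and at 81.3% to 81.4% between either and Hsd3b5. Of all 50-base windows in their annotated transcripts, 21.0% in Hsd3b2, 23.5% in Hsd3b3 and 18.1% in Hsd3b5 also occurred in other genes. Hsd3b2 shared most with Hsd3b3 (10.8%), Hsd3b3 with Hsd3b2 (22.4%) and Hsd3b5 with the gene model Gm10681 (17.6%). A read of at most 50 bases that lies wholly in these stretches could not be placed in 1 gene only, whereas a longer or paired read might be. The deposited tables hold reads that mapped to several places in a summary line of their own, outside the gene counts, and the levels of the Hsd3b copies are uncertain to that extent. The shared fraction was at most 1.89% in the other 7 members. Srd5a1 (chr13:69712327-69750320, minus strand) overlaps Nsun2 on the opposite strand without a shared exon and shares 15.8% of its exon bases with the gene model Gm17108, and Hsd11b1 (chr1:195047824-195090248, minus strand) overlaps a pair of gene models on the opposite strand, also without a shared exon. Hsd17b13 (chr5:104384459-104406429) and Hsd17b11 (chr5:104418781-104450938) are neighbours on the minus strand, with coding sequences identical at 69.0% of aligned bases. The others are Hsd17b2 (chr8:120225846-120282929), Akr1d1 (chr6:37480173-37518815) and Akr1c6 (chr13:4433552-4456776), all on the plus strand.

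Reads counted on genes numbered 13071874 to 20045141 per mouse, and 3 reads, the smallest count taken to show expression, equalled 0.131 to 0.254 normalised CPM (counts scaled to a common library size with TMM factors, the unit of all levels below). Intact and GDX libraries also differed in make-up, with 3.47% to 6.2% of reads outside annotated features in Intact and 8.52% to 11.3% in GDX mice, and 10.7% to 18.9% of reads mapping to several places in Intact and 8.59% to 10.8% in GDX mice, so these too cannot be told apart from gonadal status. Xist and 4 Y-linked genes separated XX from XY mice, and 1 library (XX Te Intact, mouse 37366) had low levels of the Y-linked genes, up to 4.27 against 41.5 to 153 for Eif2s3y in XY mice. Leaving out that mouse changed no call of a member in the 4 main comparisons. Hepatocyte markers were high in every mouse, with Alb at 47900 to 119000. Markers of other liver cells were present as well, and the sums over 6 Kupffer cell markers were 211 to 999 in Intact and 133 to 1000 in GDX mice, over 5 neutrophil markers 2.37 to 791 and 2.32 to 112, over 6 stellate cell markers 239 to 497 and 210 to 670, over 5 endothelial markers 131 to 237 and 120 to 320, over 5 cholangiocyte markers 9.66 to 126 and 20.3 to 142, over 5 lymphocyte markers 1.41 to 18 and 1.72 to 10.2, and over 5 adipocyte markers 12.1 to 106 and 6.61 to 44.6 (Adipoq at most 0.105). The castration effect called 63.3% of tested genes, 33.4% as higher and 29.9% as lower. Of the tested markers 2 of 8 hepatocyte, 1 of 4 neutrophil, 3 of 6 stellate cell, 2 of 5 endothelial, 2 of 5 cholangiocyte and 1 of 5 lymphocyte markers were higher, and 2 hepatocyte, 1 of 6 Kupffer cell, 2 neutrophil, 1 endothelial, 1 cholangiocyte and 2 of 2 adipocyte markers were lower. The ovariectomy effect called 69.4%, with 36.0% higher and 33.4% lower. Here 3 hepatocyte, 1 neutrophil, 3 stellate cell, 1 endothelial and 3 cholangiocyte markers were higher, and 3 hepatocyte, 3 Kupffer cell, 3 neutrophil, 1 stellate cell, 1 endothelial, 2 lymphocyte and 1 adipocyte markers were lower. The part of these cells in the results on GDX was not tested. In such bulk RNA, fewer cells of a type and less RNA per cell cannot be told apart.

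Hsd3b5, which in mouse liver acts mainly as a 3-ketosteroid reductase, had the widest range of the members. In XY Te Intact mice its levels were 20.8 at the lowest, 79.9 at the median and 397 at the highest. In XX Te Intact mice they were 0.205, 8.56 and 63.1. All 6 XY Te Intact mice thus lay between 20.8 and 397, whereas the XX Te Intact mice split, with 15.0, 44.2 and 63.1 in mice 98893, 18333 and 95271 and 0.205, 0.364 and 2.10 in mice 14614, 11587 and 37366. In Ov Intact mice Hsd3b5 was near or under the floor, with 0.104 to 0.731 in XX (31 reads in 6 mice) and 0 to 0.766 in XY (36 reads). After GDX it was at 0 to 15 reads per mouse in all 4 groups, with 9 reads in total in XX Ov GDX, 9 in XY Ov GDX, 29 in XX Te GDX and 13 in XY Te GDX. These levels were known when the members were chosen, so they are given with no test, and fitted fold changes against groups at the floor depend on the prior count. With that limit, the fitted gonadal and castration log2 fold changes were -7.24 (Ov Intact against Te Intact) and -8.03 (Te GDX against Te Intact). Within XX the respective values were -6.00 and -6.04, and within XY -8.48 and -10.01. The 4 values within genotypes depended on single mice, since the XX values were -5.25 and -5.29 without mouse 95271, the XX castration value was -6.80 without mouse 93559 (XX Te GDX), and the XY values were -7.70 and -9.24 without mouse 20024. No fold is given for GDX against Intact in mice with ovaries, where 67 reads in 12 Intact mice stood against 18 reads in 12 GDX mice.

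**Figure D1:**
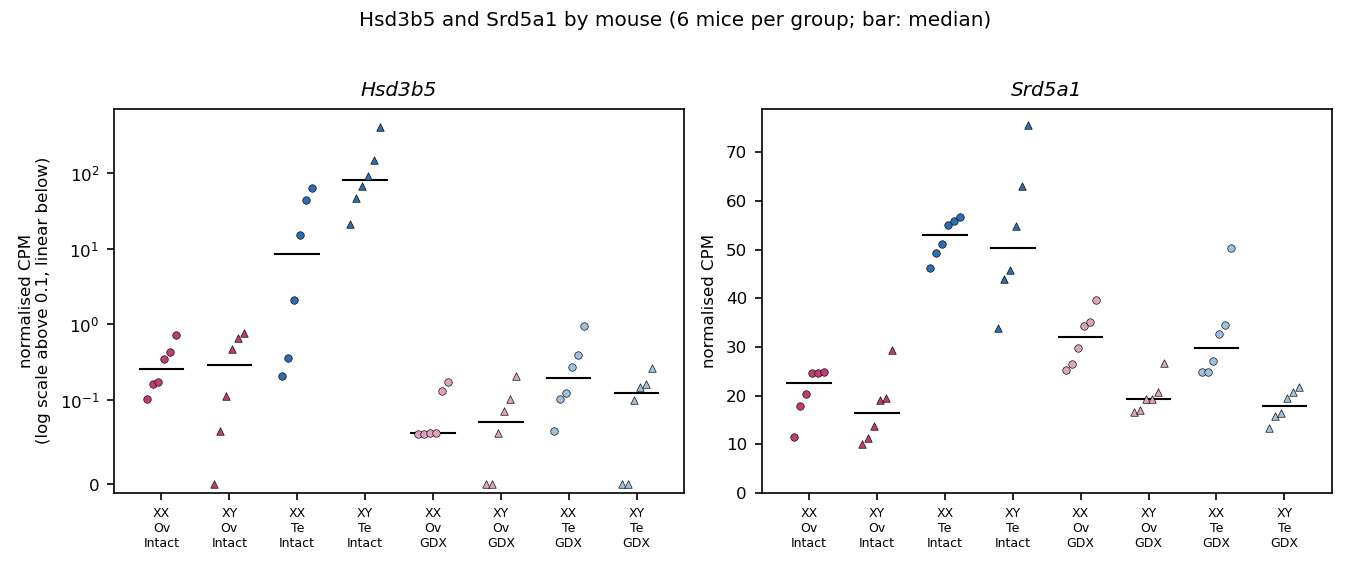
Normalised CPM of Hsd3b5 (left, log scale above 0.1 and linear below) and Srd5a1 (right, linear scale) in each mouse of the 8 groups on the horizontal axis (circles XX, triangles XY; pink ovaries, blue testes; dark Intact, pale GDX), with the group median as a bar. Hsd3b5 exceeded 1 normalised CPM in 4 of 6 XX Te Intact mice and in all 6 XY Te Intact mice and in no other group, while Srd5a1 lay at 33.9 or above in all 12 Te Intact mice.

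The other copies in the cluster, Hsd3b2 and Hsd3b3, had much narrower ranges than Hsd3b5. The gonadal and castration differences of Hsd3b2 had the same direction as those of Hsd3b5 and were smaller. Hsd3b2 was measured at 50.2, 68.8 and 107 (lowest, median and highest) in XY Te Intact mice, at 40.0, 46.0 and 90.8 in XX Te Intact mice, at 27.3, 46.2 and 66.4 in XX Ov Intact mice and at 30.8, 43.5 and 58.3 in XY Ov Intact mice. Its GDX groups had medians of 36.3 to 45.9 and together ranged from 29.1 to 61.0. All of these groups overlapped their neighbours in the order of medians. Hsd3b2 was lower in Ov than in Te Intact mice (log2 fold change -0.53, SE 0.147, adjusted p = 0.00748 by edgeR's quasi-likelihood test over all tested genes, as for every adjusted p below) and fell after removal of the testes by 0.63 on the log2 scale (SE 0.147, adjusted p = 0.000319). The 2 XX Te Intact mice with the highest Hsd3b2, 18333 (83.5) and 95271 (90.8), were also the 2 with the highest Hsd3b5, and in XY Te Intact mice the highest of both genes was in mouse 20024. Within XY the gonadal value of Hsd3b2 was -0.74 (adjusted p = 0.0548 and value -0.59 without mouse 20024), and within XX it was -0.32 (adjusted p = 0.347; -0.61 and 0.00802 with 1 surrogate variable in the model). The castration values were -0.97 in XY and -0.29 in XX, and the difference between the genotypes was not tested. When the mice of the compared arms were fitted alone, the gonadal call of Hsd3b2 was lost (adjusted p = 0.0537).

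Hsd3b3 was the more abundant of the 2 copies, at 80.6 to 234 in Intact and 132 to 250 in GDX mice. Its medians lay between 142 and 196 in the 8 groups, and each group overlapped the next. The test was missed in the gonadal comparison (-0.27, SE 0.121, adjusted p = 0.0886), after castration (0.04, adjusted p = 0.775) and after ovariectomy (0.22, adjusted p = 0.101). The interval of 2 SE of the castration value ran from -0.20 to 0.28. With library totals in place of TMM all 3 values passed the test (-0.29, 0.25 and 0.46). Per kilobase of exon, the median level in Intact mice was 83.9 for Hsd3b3, 13.4 for Hsd3b2 and 0.432 for Hsd3b5. Of the other 3β-hydroxysteroid dehydrogenase genes, 3 were found in the table and none passed the filter, with Hsd3b1 and Hsd3b6 at 10 reads or fewer in every mouse and Hsd3b7 listed at 0. Whether the 0 of Hsd3b7 reflects its expression or the annotation and counting was not tested.

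Srd5a1, which reduces testosterone, corticosterone and other 3-keto-4-ene steroids to their 5α forms, was high in mice with testes in place. Its levels were 46.2, 53.1 and 56.7 (lowest, median and highest) in XX Te Intact mice and 33.9, 50.3 and 75.7 in XY Te Intact mice. With ovaries in place they were 11.4, 22.5 and 24.9 in XX and 9.98, 16.4 and 29.4 in XY mice. The arms did not overlap, which was true of 0.597% of all tested genes in this comparison. Srd5a1 was lower in Ov Intact mice by 2.79-fold (log2 fold change -1.48, SE 0.145, adjusted p = 9.02e-11), by -1.34 within XX and by -1.62 within XY, both past the test. In XX Te Intact mice the tight range of Srd5a1 stood beside the 308-fold range of Hsd3b5 in the same animals.

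Srd5a1 fell after castration and rose after ovariectomy. In Te GDX mice it ranged from 24.8 to 50.3 (median 29.8) in XX and from 13.3 to 21.8 (median 17.9) in XY. In Ov GDX mice it ranged from 25.3 to 39.7 (median 32.1) in XX and from 16.6 to 26.7 (median 19.3) in XY. Both XX GDX medians lay above both XY GDX medians. The castration value was -1.13 (SE 0.144, adjusted p = 1.63e-08), with -0.70 in XX and -1.56 in XY, both past the test. The ovariectomy value was 0.42 (SE 0.144, adjusted p = 0.00961), with 0.62 in XX, which passed, and 0.21 in XY, which did not, a difference that was not tested. With 1 surrogate variable in the model the ovariectomy call was lost (0.32, adjusted p = 0.0784). The castration minus ovariectomy difference was -1.55 (SE 0.203, adjusted p = 8.27e-07). This comparison called 5.60% of all tested genes.

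Akr1d1, the 5β-reductase that also acts in bile acid synthesis, differed between Ov and Te Intact mice in the opposite direction to Srd5a1. Its levels were 166, 489 and 884 (lowest, median and highest) in XX Ov Intact mice and 234, 351 and 663 in XY Ov Intact mice. They were 195, 258 and 397 in XX Te Intact mice and 151, 262 and 347 in XY Te Intact mice. The arms overlapped, and the high values came from mice 97856, 49580 and 66804 (XX, 884, 756 and 645) and 89895 and 799 (XY, 663 and 546). Akr1d1 was 1.72-fold higher in Ov than in Te Intact mice (log2 fold change 0.78, SE 0.174, adjusted p = 0.000857) and fell after ovariectomy by 0.63 (SE 0.173, adjusted p = 0.00137), to 244 to 429 in the 12 Ov GDX mice. The castration value was 0.22 (SE 0.173, adjusted p = 0.276). Castration minus ovariectomy was 0.85 (SE 0.245, adjusted p = 0.0303), and this call was lost without mouse 49580 (0.78, adjusted p = 0.052), 799 (0.80, 0.0524), 89895 (0.74, 0.0715) or 97856 (0.73, 0.0688), 4 of the 5 mice just named. The ovariectomy value was -0.03 (adjusted p = 0.826) with 1 surrogate variable in the model. Within genotypes it was -0.61 in XX, where leaving out any of 6 mice ended the call, and -0.66 in XY, where the value without mouse 89895 was -0.43 (adjusted p = 0.144) and without mouse 799 -0.56 (0.0603). With library totals in place of TMM both were lost (-0.35 and -0.36, adjusted p = 0.125 and 0.102). Within genotypes the gonadal value was 0.93 in XX (0.69, adjusted p = 0.130, without mouse 97856 and 0.79, 0.0638, without mouse 49580; adjusted p = 0.329 with the compared arms alone) and 0.64 in XY (adjusted p = 0.0682). The XY value passed with library totals (0.71, adjusted p = 0.0128), with 1 surrogate variable (0.46, adjusted p = 0.0147) and without any 1 of 3 mice (adjusted p from 0.031 to 0.0427).

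Akr1c6, a 17β-hydroxysteroid dehydrogenase of the aldo-keto reductase family, was the most abundant member per kilobase of exon, with medians of 1120 in Intact and 390 in GDX mice. Its levels in Intact mice were 905, 2500 and 4970 (lowest, median and highest) in XX Ov, 1300, 2010 and 4650 in XY Ov, 1180, 1900 and 2690 in XX Te and 917, 2960 and 4400 in XY Te. After GDX they were 672 to 798 in XX Ov, 599 to 776 in XY Ov, 683 to 975 in XX Te and 595 to 779 in XY Te. Every GDX group was narrower, with the highest mouse 1.19 to 1.43 times the lowest against 2.28 to 5.49 times in the Intact groups. Akr1c6 fell 3.07-fold after castration (log2 fold change -1.62, SE 0.216, adjusted p = 4.07e-08) and 3.62-fold after ovariectomy (-1.86, SE 0.217, adjusted p = 1.13e-09). The Ov Intact and Ov GDX ranges did not overlap, as was true of 10.8% of all tested genes, whereas the Te Intact mouse 89033 (917) lay within the range of the Te GDX mice. Within genotypes the castration values were -1.26 (XX) and -1.98 (XY) and the ovariectomy values -1.83 and -1.88, all past the test. The gonadal effect in Intact mice missed the test (0.14, SE 0.21, interval -0.28 to 0.56), but with 1 surrogate variable in the model it turned and passed (-0.31, adjusted p = 0.00423).

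Hsd17b2, which oxidises estradiol and testosterone to weaker ketosteroids, moved like Akr1c6. Its Intact levels were 94.4, 133 and 252 (lowest, median and highest) in XX Ov, 80.6, 122 and 200 in XY Ov, 84.9, 101 and 144 in XX Te and 85.0, 148 and 284 in XY Te. After GDX all 24 mice lay between 44.4 and 77.2, under the lowest Intact mouse at 80.6. The ranges did not overlap after castration, as for 4.81% of all tested genes, or after ovariectomy, as for 10.8%. The share of all tested genes that separated all Intact from all GDX mice was not computed. Hsd17b2 fell by 1.08 after castration (SE 0.152, adjusted p = 1.14e-07) and by 1.25 after ovariectomy (SE 0.153, adjusted p = 2.85e-09), with -0.71 and -1.45 after castration in XX and XY and -1.21 and -1.29 after ovariectomy. The gonadal value was 0.05 (interval -0.25 to 0.35) and the XX against XY value was 0.00 (interval -0.21 to 0.22), and both missed the test. Within genotypes the gonadal values had opposite signs, 0.44 in XX and -0.33 in XY, and neither passed. The difference between them, 0.77 (SE 0.301), did not pass (adjusted p = 0.695).

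Hsd11b1, the reductase that regenerates active glucocorticoid from its 11-keto form in liver, was measured at 593, 887 and 1900 (lowest, median and highest) in XX Ov Intact, 429, 817 and 1330 in XY Ov Intact, 542, 680 and 884 in XX Te Intact and 459, 800 and 1070 in XY Te Intact mice. In the 24 GDX mice it ranged from 398 to 740, and the Intact and GDX ranges overlapped. It fell after ovariectomy by 0.92 (SE 0.153, adjusted p = 1.34e-06), with -0.98 in XX and -0.87 in XY. After castration it fell by 0.46 (SE 0.152, adjusted p = 0.00824), with -0.67 in XY (adjusted p = 0.0527 and value -0.52 without mouse 70314) and -0.25 in XX, which did not pass. The castration call was lost with library totals in place of TMM (-0.24, adjusted p = 0.0583), and within XY also with 1 surrogate variable in the model (-0.26, adjusted p = 0.0542). H6pd, which supplies NADPH to Hsd11b1 in the endoplasmic reticulum, rose after ovariectomy by a log2 fold change of 0.54 (SE 0.111, adjusted p = 3.78e-05) and had a castration value of 0.03 (adjusted p = 0.832). The glucocorticoid receptor gene Nr3c1 had values of 0.15 (adjusted p = 0.0405) after castration and 0.16 (adjusted p = 0.0318) after ovariectomy, and these calls were lost without any 1 of 15 and of 8 mice, respectively.

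**Figure D2:**
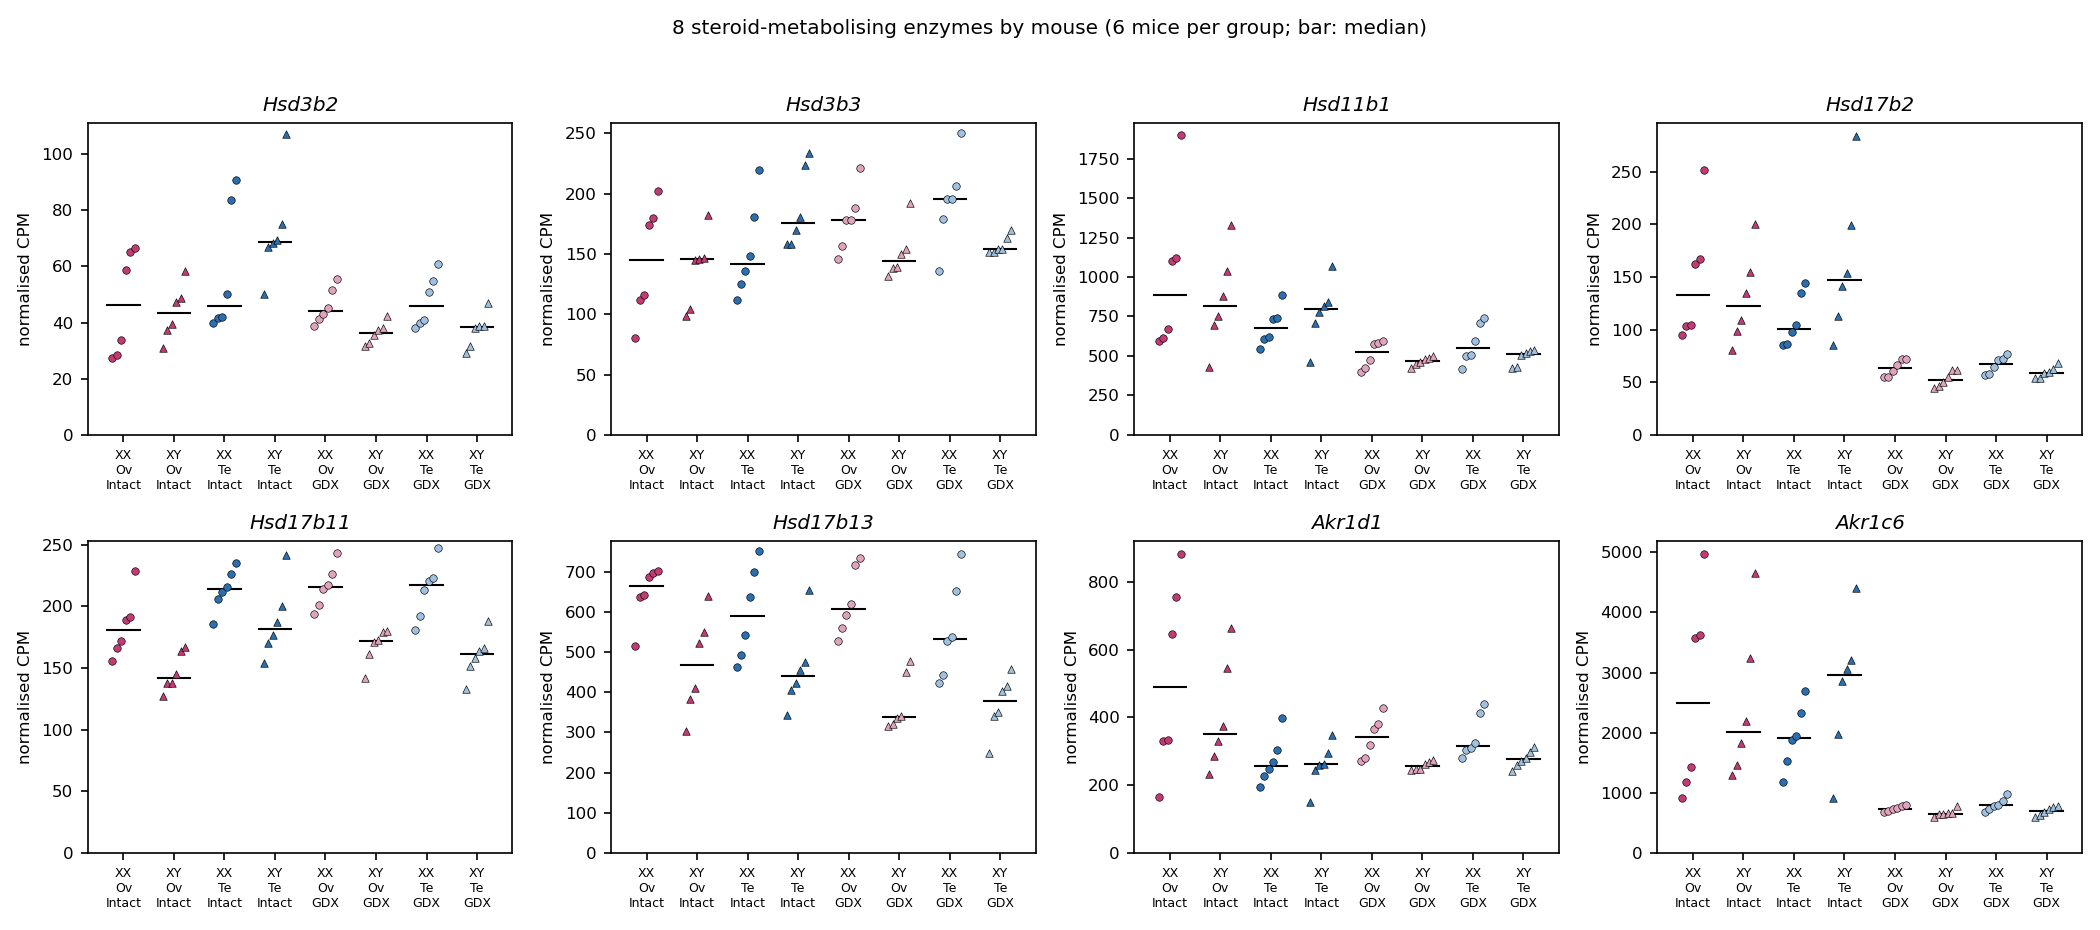
Normalised CPM (vertical axes, linear and from 0) of 8 members in each mouse of the 8 groups (circles XX, triangles XY; pink ovaries, blue testes; dark Intact, pale GDX), with the group median as a bar. Akr1c6 and Hsd17b2 were low and narrow in every GDX group, at 595 to 975 and 44.4 to 77.2, and Hsd17b13 had its 4 highest medians in the 4 XX groups, at 533 to 665.

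Hsd17b11 and Hsd17b13, neighbouring genes for proteins that sit on lipid droplets, differed between XX and XY mice. Hsd17b13 was measured at 516, 665 and 702 (lowest, median and highest) in XX Ov Intact, 464, 591 and 752 in XX Te Intact, 528, 607 and 735 in XX Ov GDX and 424, 533 and 746 in XX Te GDX mice. In XY mice it was at 304, 467 and 640 in Ov Intact, 343, 439 and 654 in Te Intact, 315, 338 and 478 in Ov GDX and 249, 377 and 458 in Te GDX. The medians of the XX groups all lay above those of the XY groups, and the ranges overlapped except in the Ov GDX mice, where every XX mouse lay above every XY mouse. The share of all tested genes with such a separation in Ov GDX mice was not computed. Hsd17b13 was 1.46-fold higher in XX mice (log2 fold change 0.54, SE 0.0821, adjusted p = 5.89e-07), by 0.42 in Intact and 0.67 in GDX mice, both past the test. It missed the test in the gonadal (0.07), castration (-0.21) and ovariectomy (-0.19) comparisons.

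Hsd17b11 had medians of 181 and 214 in XX Ov and XX Te Intact mice, 142 and 182 in XY Ov and XY Te Intact mice, 215 and 217 in XX Ov and XX Te GDX mice and 172 and 161 in XY Ov and XY Te GDX mice. Its whole range was 127 to 247, the narrowest of the members relative to its level. It was higher in XX mice (0.32, SE 0.0494, adjusted p = 8.46e-07), by 0.25 in Intact mice (adjusted p = 0.107 with library totals in place of TMM) and by 0.39 in GDX mice (0.0731 with library totals). The call in Intact mice was also lost with the compared arms alone (adjusted p = 0.157) and with no filter beyond 1 count (0.0554). Hsd17b11 was lower in Ov than in Te Intact mice (-0.29, SE 0.0699, adjusted p = 0.00221), by -0.36 within XY, which passed, and by -0.21 within XX, which did not. The XY call was lost with library totals (-0.28, adjusted p = 0.144) and with the compared arms alone (-0.35, adjusted p = 0.169). Hsd17b11 rose after ovariectomy (0.21, SE 0.0698, adjusted p = 0.00668), a call lost with 1 surrogate variable in the model (0.13, adjusted p = 0.106). The castration value was -0.12 (adjusted p = 0.135). The difference of castration minus ovariectomy, -0.33 (SE 0.0987, adjusted p = 0.0364), stood close to the threshold, since the adjusted p was 0.0501 to 0.0613 without any 1 of 15 mice and 0.108 with library totals.

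Beside the XX and XY differences, markers of immune cells moved with sex chromosomes. The 6 Kupffer cell markers, 5 of which were lower in XX mice, summed to 133 to 706 in XX and 279 to 1000 in XY mice. The 4 tested neutrophil markers were all lower in XX mice, and the 5 on the list summed to 2.32 to 35.7 in XX and 6.78 to 791 in XY mice. None of 8 hepatocyte markers passed in this comparison. The part of these cells in the values of Hsd17b11, Hsd17b13 and Srd5a1 was not tested. Of 8 genes of lipid droplet proteins and their lipases, 6 were higher in XX mice and none was lower, with a median of 0.50, against 21.9% of all tested genes higher and 14.8% lower.

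The counts of members past the threshold of adjusted p under 0.05 were as follows. Hsd3b5 is left out of them, since its values were known and it passed the filter through the Te Intact mice. In the gonadal comparison 1 of the other 9 members was higher and 3 were lower in Ov Intact mice, against 25.3% of all tested genes. Of all tested genes 14.1% were higher and 11.3% lower. In the castration effect 5 were lower and none higher, against 63.3% of all tested genes (33.4% higher and 29.9% lower), and in the ovariectomy effect 2 were higher and 4 lower, against 69.4% (36.0% higher and 33.4% lower). In the chromosomal effect, XX against XY, 3 were higher in XX mice and none was lower, against 36.7% (21.9% higher and 14.8% lower). Within genotypes the share of all tested genes called was 5.82% (XX) and 15.5% (XY) in the gonadal effect, 37.1% and 56.7% after castration and 55.1% and 59.4% after ovariectomy, and the chromosomal effect called 10.7% in Intact and 34.3% in GDX mice. The ranges of XX and XY mice overlapped in every member, and did not overlap in 0.0519% of tested genes. Median log2 fold changes of the 9 members and of all tested genes were 0.05 and 0.04 (gonadal), -0.46 and 0.07 (castration), -0.19 and 0.06 (ovariectomy) and 0.12 and 0.05 (XX against XY). Since the members were chosen with earlier results in view, nothing about the list as a whole is read from these counts. The gonadal and castration comparisons share the Te Intact mice, and the gonadal and ovariectomy comparisons share the Ov Intact mice. With library totals in place of TMM, the median of all tested genes rose from 0.07 to 0.27 after castration and from 0.06 to 0.27 after ovariectomy, and the share of called genes that were higher rose from 52.7% to 69.5% and from 51.9% to 66.1%. In the chromosomal effect that share fell from 59.8% to 28.1%, and in the gonadal effect it rose from 55.6% to 68.1%.

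**Figure D3:**
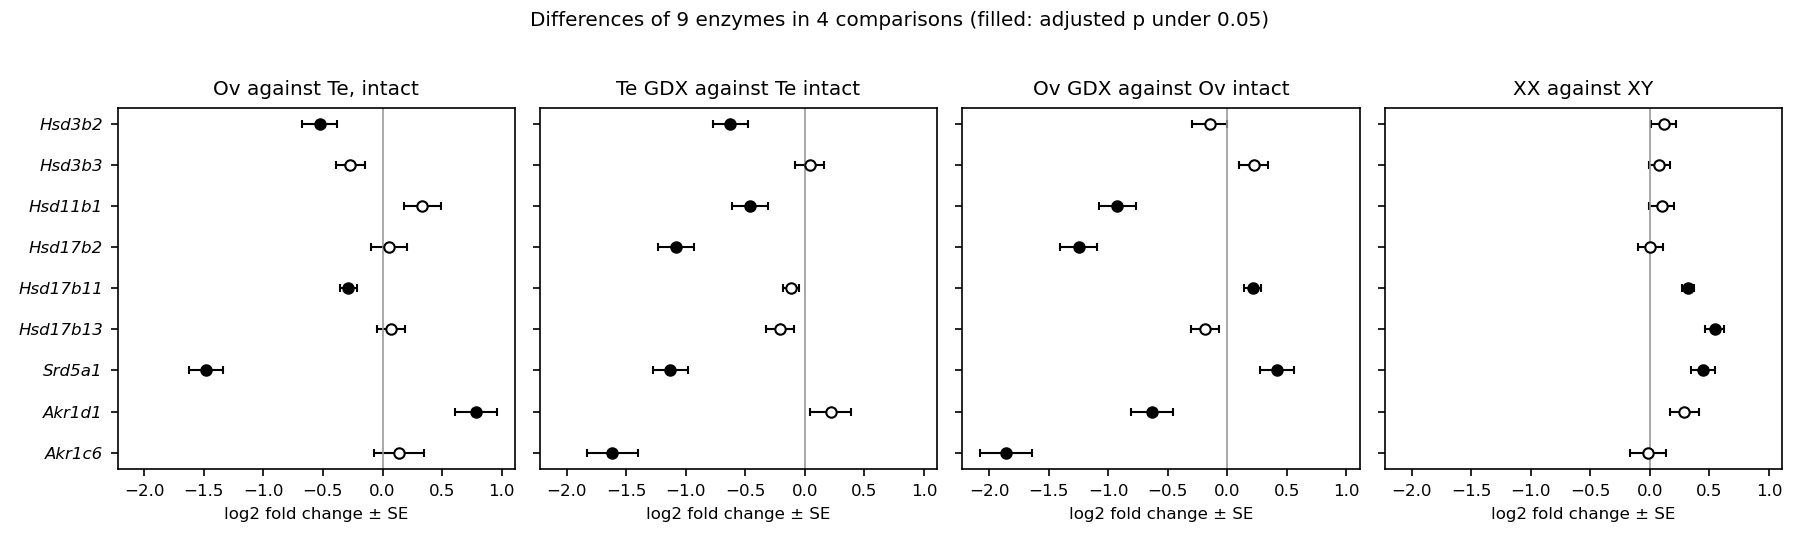
Log2 fold changes with their SE (horizontal axes) of 9 members (rows) in 4 comparisons of the edgeR fit, each of which averages over groups of 6 mice, with filled points where the adjusted p was under 0.05. Srd5a1 was negative in the gonadal (-1.48) and castration (-1.13) panels and positive after ovariectomy (0.42), whereas Akr1c6 was negative after castration (-1.62) and ovariectomy (-1.86). Hsd3b5 is left out because its values rest on groups at the floor.

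The members were then compared between GDX mice that had carried ovaries and those that had carried testes. Hsd3b5 is left out, since at 0 to 15 reads per mouse after GDX it could hardly pass. None of the other 9 members passed the test between Ov GDX and Te GDX mice, where 14 genes (0.0908%) passed in all. None of these 9 had an unadjusted p under 0.05, as 475 genes did. DESeq2 called 25 genes and no member. The values ranged from -0.13 (Hsd11b1) to 0.09 (Hsd17b13), leaving out Hsd3b5, with SE of 0.0698 to 0.21. For Srd5a1 the interval was -0.22 to 0.35, which does not hold the gonadal difference of -1.48 seen in Intact mice.

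Srd5a1 was then compared between XX and XY mice. All 6 XX Ov GDX mice lay at 25.3 or above and 5 of 6 XY Ov GDX mice at 20.7 or below, and every XX Te GDX mouse (24.8 or above) lay above every XY Te GDX mouse (21.8 or below). For Te GDX mice the share of all tested genes with such a separation was not computed. Srd5a1 was 1.36-fold higher in XX mice over all groups (log2 fold change 0.45, SE 0.101, adjusted p = 0.000431). The value was 0.76 in GDX mice, past the test, and 0.13 in Intact mice, which missed it. The difference between these values, 0.64 (SE 0.202), did not pass (adjusted p = 0.0805). Nor did that of any other member, leaving out Hsd3b5 (0 to 15 reads per mouse after GDX), while 2.12% of all tested genes did. Without mouse 99557 (XY Te Intact) the Srd5a1 difference was 0.68 (adjusted p = 0.0491). Among Intact mice, 0% of tested genes passed edgeR's test for a sex chromosome difference that depends on the gonad (989 genes and 1 member at an unadjusted p under 0.05), while DESeq2 called 2 genes and no member.

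In Intact and in GDX groups, several members were high or low in the same mice. In XX Ov Intact, mouse 97856 was the highest of 6 in Akr1c6 (4970), Akr1d1 (884), Hsd11b1 (1900), Hsd17b2 (252) and Hsd17b13 (702), and the lowest in Hsd17b11 (156) and Srd5a1 (11.4). In XY Ov Intact, mouse 89895 was the highest in 6 members, among them Akr1c6 (4650) and Hsd11b1 (1330), and the lowest in Srd5a1 (9.98), while mouse 48525 was the lowest in 6 members and the highest in Srd5a1 (29.4). The pattern was shared by the testes-bearing groups in part. In XX Te Intact, mouse 95271 was the highest in 7 members, and in XY Te Intact, mouse 70314 was the highest in 5, among them Akr1c6 (4400) and Hsd17b2 (284), and mouse 89033 the lowest in 5 and the highest in Hsd17b11 (242). Among GDX mice, 12100 (XX Ov) was the highest of its group in 7 members, 19562 (XY Ov) and 69848 (XY Te) in 5 each, and 13306 (XY Te) the lowest in 6. In the 4 GDX groups the highest mouse exceeded the lowest by at most 1.43 times in Akr1c6, 1.58 times in Akr1d1, 1.77 times in Hsd11b1 and 1.39 times in Hsd17b2, against up to 5.49, 5.33, 3.20 and 3.34 times in Intact groups. Genes measured in 1 library share its scaling and composition, so the points are not independent, and no correlation was computed. Mice 97856, 70314 and 89895 had the 3 lowest TMM factors of all 48 mice, 0.742, 0.773 and 0.805, against up to 1.24. On the surrogate variable, a score of spread between mice estimated beside the groups, mouse 97856 had the highest value (0.41) and mouse 89033 the lowest (-0.241), with 89895 at 0.353 and 70314 at 0.239. The part of library make-up in these values was not tested. The surrogate variable was not independent of the groups, since GDX mice had values of -0.151 to 0.0853, most of them negative. Calls lost or gained with it in the model are therefore not free of the difference between Intact and GDX mice.

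**Figure D4:**
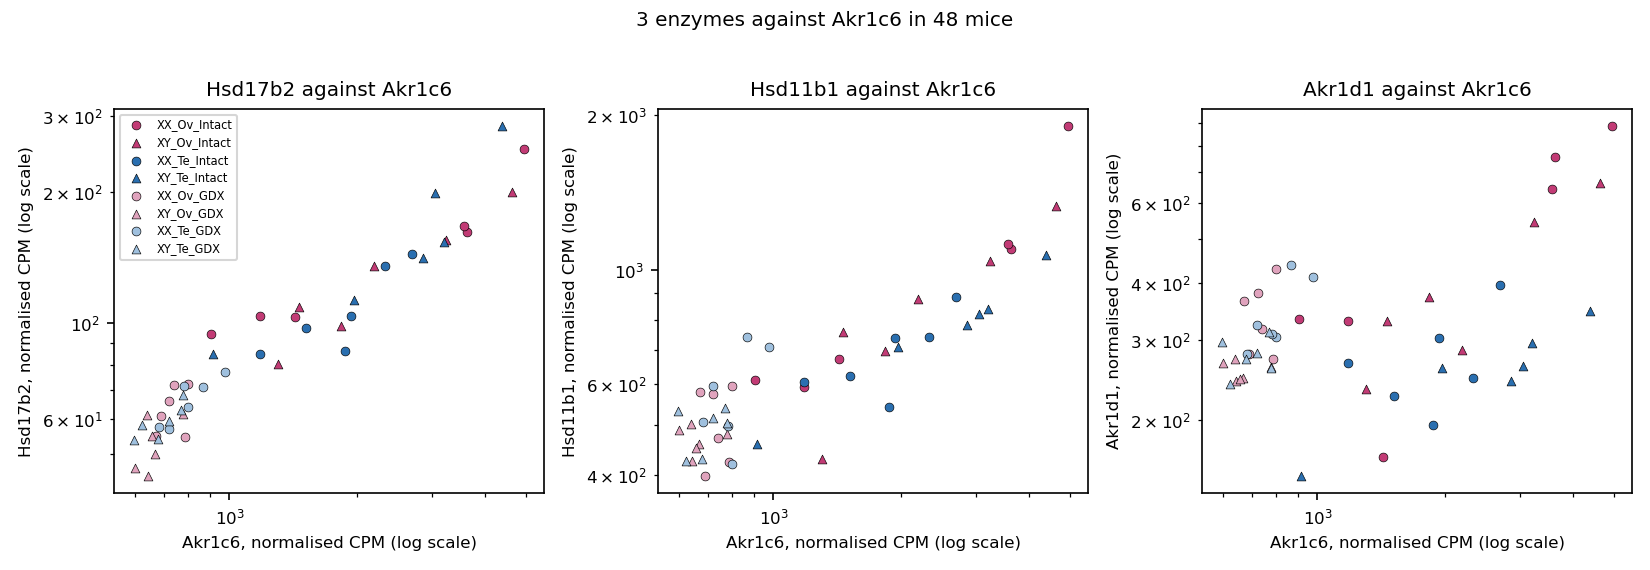
Normalised CPM of Hsd17b2, Hsd11b1 and Akr1d1 (vertical axes) against Akr1c6 (horizontal axes) in 48 mice, both axes on log scales (circles XX, triangles XY; pink ovaries, blue testes; dark Intact, pale GDX). The 24 GDX mice lie together at an Akr1c6 of 595 to 975, and the Intact mice spread from 905 to 4970, with mouse 97856 (XX Ov Intact) at the top right of the Hsd11b1 and Akr1d1 panels.

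Other genes of steroid metabolism were counted in lists, to be read against the 33.4% higher and 29.9% lower of all tested genes after castration (median 0.07) and the 36.0% and 33.4% after ovariectomy (median 0.06). Of 7 tested other steroid reductases, 5 fell after castration (list median -0.77) and 6 after ovariectomy (-0.77), and none rose. Akr1c13 and Akr1c20, from the same gene cluster as Akr1c6, had values of -1.32 and -0.89 after castration and of -1.67 and -1.63 after ovariectomy (adjusted p from 9.79e-10 to 0.000254). Of 5 tested other 17β-hydroxysteroid dehydrogenases, 3 fell after castration and none rose (list median -0.38, a share called near the 63.3% of all tested genes), led by Hsd17b12 (-1.19, SE 0.135), which acts in fatty acid elongation, and Hsd17b10 (-1.02, SE 0.176), a mitochondrial enzyme. After ovariectomy 3 fell and 1 rose (list median -0.88), led by Hsd17b6 (-1.08, SE 0.219), which had a castration value of 0.02 (adjusted p = 0.954), and Hsd17b10 (-0.90, SE 0.175).

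Steroid hydroxylases and conjugating enzymes moved in both directions. Of 3 hydroxylases, 1 rose and 2 fell after castration (list median -2.22), with Cyp2a4, a testosterone 15α-hydroxylase, at 3.11 (SE 0.324) and Cyp7b1, an oxysterol 7α-hydroxylase, at -2.40 (SE 0.216), while after ovariectomy 2 fell and none rose (list median -0.78), with Cyp2a4 at -1.22 and Cyp7b1 at -0.78. Of 6 conjugating enzymes, 2 rose and 3 fell after castration (list median -0.27), and 1 rose and 5 fell after ovariectomy (-1.26), beside 63.3% and 69.4% of all tested genes called. Sult2a1, a hydroxysteroid sulfotransferase, ranged from 0.205 to 5.96 in Te Intact and from 0.629 to 139 in Te GDX mice (log2 fold change 4.06, SE 0.897, and 3.41 without mouse 16037 or 4.72 without mouse 37366). Sult2a8 had values of -2.49 (SE 0.345) after castration and -2.77 (SE 0.349) after ovariectomy, both past the test. The ovariectomy value of Sult2a1 was -1.67 (adjusted p = 0.0323, and 0.0508 to 0.0758 without any 1 of 5 mice; -0.41 and 0.645 with 1 surrogate variable), and that of Cyp7b1 was lost with 1 surrogate variable (-0.26, adjusted p = 0.241).

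Of 7 tested steroid receptors and cofactors, 5 rose after castration and 6 after ovariectomy, and none fell, where 33.4% and 36.0% of all tested genes were higher. Esr1, the estrogen receptor gene, had values of 1.52 (SE 0.128) after castration and 0.69 (SE 0.124) after ovariectomy, and Por, which passes electrons to the cytochromes P450, of 0.90 and 0.78. Among genes of steroid synthesis in glands, Cyp11a1 was at 2 reads or fewer per mouse and Cyp19a1 was listed at 0, whereas Cyp17a1 ranged from 12.5 to 320. Of 2 tested on that list, Cyp17a1 rose after castration (1.22, SE 0.24) and had an ovariectomy value of -0.19 (adjusted p = 0.468), and Star rose after ovariectomy (0.32, SE 0.104; adjusted p = 0.0879 with 1 surrogate variable) with a castration value of 0.21 (adjusted p = 0.0794, and 0.00319 with library totals).

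Of the 8 lipid droplet genes, 3 fell after castration and none rose (list median -0.23, fewer called than the 63.3% of all tested genes), with Cidec at -1.96 (SE 0.359) and Cidea at 0 to 124 reads in Te Intact and 0 to 10 reads in Te GDX mice, and after ovariectomy 4 rose and 1 fell (list median 0.33, against 69.4% called), with Plin4 at 1.86 (SE 0.354) and Plin3 at -0.62 (SE 0.117). Of 6 glucocorticoid target genes, 1 passed after castration, Per1 (0.86, SE 0.19; list median 0.24), and after ovariectomy 2 rose and 2 fell (list median 0.01), with Tsc22d3 at -0.66 (SE 0.198; -0.11, adjusted p = 0.618, with 1 surrogate variable) and Sgk1 at -0.65 (SE 0.179), which was -0.37 without mouse 81790.

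For each member, the genes with the most similar pattern were found as those with the smallest root mean square difference between the 8 centred group means of log2 levels. They were Mup1 and Slco1a1 for Hsd3b5 (differences of 0.625 and 0.633, against a range of 7.21 between its groups), Arsa and Chrm3 for Srd5a1 (0.165 and 0.171, range 1.67), Ormdl1 and Mrpl20 for Akr1c6 (0.0684 and 0.0844, range 1.90) and Cfhr2 and Polr2i for Hsd17b2 (0.0732 and 0.0741, range 1.51). For Hsd11b1 they were Gm9769 and Slc25a15 (0.0354 and 0.0433, range 0.962), for Hsd3b2 Kctd15 and Trip4 (0.0750 and 0.0801, range 0.968), for Hsd3b3 Sdr42e1 and Pqlc1 (0.0650 and 0.0662, range 0.507) and for Akr1d1 Vnn3 and a gene without a symbol in the table used (0.104 and 0.0752, range 0.822). For Hsd17b11 they were Slc17a5 and C2cd2 (0.0306 and 0.0370, range 0.561), and for Hsd17b13 4933431E20Rik and Cryz (0.0777 and 0.0811, range 0.826). The likeness was computed over 8 groups and is a description.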

How the data were processed

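Liver RNA of 48 FCG mice was sequenced, 1 library per mouse. The authors aligned reads to GRCm39 and counted reads per gene with STAR (version 2.7.10a, per the labels' processing notes, which also name DESeq2 1.36.0), and deposited the counts as whole numbers, not normalized. The annotation and strand setting are not given in the sources used here. The 4 summary lines of reads not assigned to genes (25.5% to 42.3% of all reads per mouse) were left out. Groups were taken from the genotype and treatment labels, and symbols were matched for 31020 of 55414 identifiers (56.0%).

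A mean for each of 8 groups was fitted to all 48 mice in R (4.3.3) with edgeR (4.0.16): TMM normalization, filterByExpr, robust quasi-likelihood tests and Benjamini-Hochberg adjustment over 15414 genes, with an adjusted p under 0.05 called. Positive values mean higher in Ov (gonadal), GDX (castration, ovariectomy) or XX mice, and the intervals span 2 SE on each side. Group means of likeness used a pseudocount of 0.5 normalised CPM. P-values rest on the spread between mice within groups, with 1 dispersion per gene shared by all 8 groups. Intact groups were wider than GDX groups in several members (Akr1c6, 2.28 to 5.49 against 1.19 to 1.43 times). The shared value can therefore understate the spread of Intact mice. With the compared arms alone, the gonadal comparison called 1693 genes in place of 3907. In all pairs of mice of 1 group the counts differed beyond sampling noise (chi-square per gene of 8.16 to 298), and reads carry no molecular identifiers, so floors cover counting error only.

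The members and lists were chosen with earlier results of these data known. Of 120 symbols listed, 115 matched. The text names all members, in each other list the 2 genes with the largest called change after castration and after ovariectomy, H6pd, Esr1, Nr3c1, Hsd3b6, Hsd17b6, the 2 genes of most similar pattern per member and the highest markers. Genes that overlap or share sequence with a member, Hsd3b1, Hsd3b7, Cyp11a1, Cyp19a1 and the sex-linked checks were added with their values seen. A further gene named by this rule is not reported here, irrespective of its values. The alternatives were DESeq2 size factors or library totals, the DESeq2 (1.42.0) Wald test, other filters (at least 1 count, or 10 counts in every mouse), 1 surrogate variable from sva (3.50.0), the compared arms alone, 47 mice (without XX Te Intact mouse 95271) and each mouse left out. The surrogate variable was not independent of the groups, with negative values in most GDX mice, so it can take up part of a difference on GDX. The fit was tested on simulated counts. Promoters came from RefSeq (GRCm38.p6), aligned with Biopython, and positions and exon lengths from NCBIM37, and plots were drawn with matplotlib.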

Additional observations from a re-analysis of the deposited data

Results flagged for a closer look

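In 3 of the 80 sets of 6 mice examined (10 members in 8 groups), 1 mouse lay far from the other 5 by Dixon's criterion, a rate near the 1 in 20 that chance gives. Hsd3b5 was at 397 normalised CPM in mouse 20024 of XY Te Intact, where the next mouse had 147. Hsd3b3 was at 192 in mouse 88616 of XY Ov GDX, where the next had 154. Hsd17b13 was at 516 in mouse 93558 of XX Ov Intact, where the next lowest had 638.

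The castration and ovariectomy effects differed by the test of their difference (edgeR's quasi-likelihood test) in 3 members. The difference was -1.55 for Srd5a1, which fell after castration (-1.13) and rose after ovariectomy (0.42). It was -0.33 for Hsd17b11, with values of -0.12 and 0.21, and 0.85 for Akr1d1, with values of 0.22 and -0.63. The last 2 rested on calls close to the threshold.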

How the results depend on the processing

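Apart from the fits with each mouse left out, the numbers of members called, Hsd3b5 included, were kept within 1.5 times under every alternative except 1. This was the fit with no filter beyond 1 count, where castration minus ovariectomy called 1 member in place of 3 (Srd5a1 remained, Hsd17b11 had an adjusted p of 0.0817 and Akr1d1 of 0.0886 over more tested genes). Kept numbers could hold other members. After ovariectomy, with 1 surrogate variable, Srd5a1, Hsd17b11 and Akr1d1 were lost and Hsd3b3 was gained. With each mouse left out in turn, members called ranged from 5 to 6 in the gonadal comparison, 6 to 7 after castration, 6 to 7 after ovariectomy, 3 to 4 for XX against XY, 1 to 4 for castration minus ovariectomy (1 without mouse 49580 or 799) and 0 to 1 for sex chromosomes by GDX (1 without mouse 99557), and were 0 for the other 2. These counts include Hsd3b5, whose levels were known beforehand. In the main fit, 25.3% (gonadal), 63.3% (castration), 69.4% (ovariectomy) and 36.7% (XX against XY) of all tested genes were called. For castration minus ovariectomy the share was 5.60%, and for sex chromosomes by GDX 2.12%. Nothing about the list is read from the counts. The DESeq2 size factors and Wald test and the fit of 47 mice (without XX Te Intact mouse 95271) ended no printed call.

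Directions that turned belonged to values that had missed the test. With library totals these were Hsd3b2 after ovariectomy (0.10), Hsd17b13 after ovariectomy (0.0363), Hsd17b11 after castration (0.0752), Cyp17a1 after ovariectomy (0.0453), Sgk1 after castration (0.0816) and, for XX against XY, Hsd3b3 (-0.0265), Hsd11b1 (-0.00253) and Hsd17b2 (-0.0896). With 1 surrogate variable they were Hsd3b2 after ovariectomy (0.26), Hsd17b2 (-0.18) and Akr1c6 (-0.31, adjusted p = 0.00423) in the gonadal comparison, Akr1c6 for XX against XY (0.0109) and H6pd after castration (-0.0902). Hsd17b2 for XX against XY was also negative with DESeq2 size factors (-0.0181), the Wald test (-0.0181), no filter (-0.0396), 10 counts in every mouse (-0.0307) and 47 mice (-0.019), and Hsd17b6 after castration was -0.0193 with no filter. With single mice left out, values crossed 0 for Akr1c6 (XX against XY, -0.127 to 0.0306; gonadal, -0.0118 to 0.235), Hsd17b2 (XX against XY, -0.0945 to 0.0299; gonadal, -0.0713 to 0.168), Hsd11b1 (XX against XY, -0.0151 to 0.129), Hsd3b3 after castration (-0.00301 to 0.104) and Hsd17b6 after castration (-0.0852 to 0.0686). The cause was not tested.

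Calls were gained for Akr1d1 after castration with library totals (0.43) and with 1 surrogate variable (0.46) and, with 1 surrogate variable, for Hsd3b3 (gonadal, -0.44; ovariectomy, 0.55), Akr1d1 (XX against XY, 0.28), Hsd17b11 (castration, -0.15) and Hsd3b2 (gonadal in XX, -0.61). Akr1d1 (gonadal in XY) passed with library totals (0.71) and 1 surrogate variable (0.46), and Star (castration) with library totals (0.405) and 10 counts in every mouse (0.25). Single mice left out also gave calls for Hsd3b3 (gonadal without mouse 14614 or 49580, -0.31 and -0.33; ovariectomy without 49580, 0.28), Hsd17b13 (castration without 37517, -0.26) and Hsd17b11 (gonadal in XX without 69572, -0.29). For all tested genes, the fit of the compared arms alone called 1693 in the gonadal comparison in place of 3907 and 33 between the former gonads in place of 14, the Wald test 25 there and 661 in place of 327 for sex chromosomes by GDX, library totals 545 for the latter, and no filter 506 in place of 863 for castration minus ovariectomy, with 7 between the former gonads at 10 counts in every mouse. At 10 counts in every mouse Hsd3b5 was not tested. Comparisons that use all 8 groups have no fit of the compared arms alone. No paired analysis was possible because the labels give each mouse its own identifier and no replicate number that groups share. Depth limits Hsd3b5 outside Te Intact mice, at 16 reads or fewer per mouse.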
